A study of Caenorhabditis elegans with 45 samples.

Results

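The transcripts described here are those of 6 regulators of the seam cells of Caenorhabditis elegans: elt-1, egl-18, elt-6, ceh-16, rnt-1 and bro-1. Their rows were found by gene symbol, and all 6 were among the 20182 genes of the count table. Seam cells are epidermal stem-like cells in a row along each side of the worm. They divide at each larval stage, in most divisions leaving 1 daughter in the seam while the other joins the surrounding epidermal syncytium, and at the end of larval life they stop dividing, fuse with each other and make the ridges of the adult cuticle called alae. ELT-1 is a GATA factor that specifies epidermal fate in the embryo. EGL-18 (also called ELT-5) and ELT-6 are a redundant pair of GATA factors that keep seam cells from fusing and act downstream of Wnt signalling. CEH-16 is an engrailed-type homeodomain protein needed for seam identity, and RNT-1, a RUNX factor, works with its CBFbeta partner BRO-1 to promote seam divisions.

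Polyadenylated RNA of whole worms was sequenced in 45 libraries, 1 per time point, forming 3 time courses. In dauer exit, larvae of the laboratory strain N2 in the dauer diapause were given food at hour 0 and 22 libraries were taken hourly at hours 1 to 22. The mutant strain glp-4(bn2), in which germ cells largely fail to multiply at the restrictive temperature, was grown continuously from hatched larvae and gave 7 libraries at hours 40, 42, 44, 46, 48, 50 and 52. N2 grown continuously from hatched larvae gave 16 hourly libraries named for hours 21 to 36. According to the labels growth was slow in that course, and the worms had in fact developed for 22 to 37 hours. All worms were fed the bacterium OP50 on plates, at a temperature that the sources used here do not give. Library totals were 18521397 to 23904100 counts in dauer exit, 23978316 to 36817376 in glp-4 and 18512549 to 43984242 in continuous N2. With 1 library per hour there are no replicates, so the error of a fitted value is the scatter of the libraries around the fitted curve, and a mean ± SD over a span of hours includes the change within that span. The hours of glp-4 did not overlap those of either N2 course, so genotype and age cannot be told apart there.

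Markers of epidermis, muscle, neurons, intestine and germline were all detected in each course. The summed level of 7 germline genes was 567 to 3493 CPM (counts scaled to equal library totals) in dauer exit, 42.0 to 67.1 CPM in glp-4 and 569 to 2378 CPM in continuous N2. In whole worms, fewer cells of a type and less RNA per cell cannot be told apart, and a change in another tissue's RNA moves every gene's share. None of the 6 genes is known to act in the seam alone, so their whole-worm level is not a seam level.

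The GATA genes were the most abundant members. Per kilobase of exon, the median level in dauer exit was 7.91 CPM per kb for egl-18, 6.91 for elt-1, 4.31 for elt-6, 1.15 for bro-1, 1.09 for rnt-1 and 0.536 for ceh-16. In glp-4 the median level per kb was 4.70 CPM for egl-18, 3.57 for elt-1, 3.54 for elt-6, 0.936 for rnt-1, 0.894 for bro-1 and 0.560 for ceh-16. In continuous N2 the order by median was elt-1 at 6.49 CPM per kb, egl-18 at 5.99, elt-6 at 3.56, rnt-1 at 1.22, bro-1 at 1.16 and ceh-16 at 0.312. The ranges of neighbours in these orders overlapped in every case except elt-6 over rnt-1 in glp-4. Within a library, elt-6 exceeded rnt-1 per kb in 7 of 7 glp-4 libraries and in 16 of 16 continuous N2 libraries, whereas bro-1 exceeded rnt-1 in 8 of 22 dauer exit libraries.

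**Figure D1:**
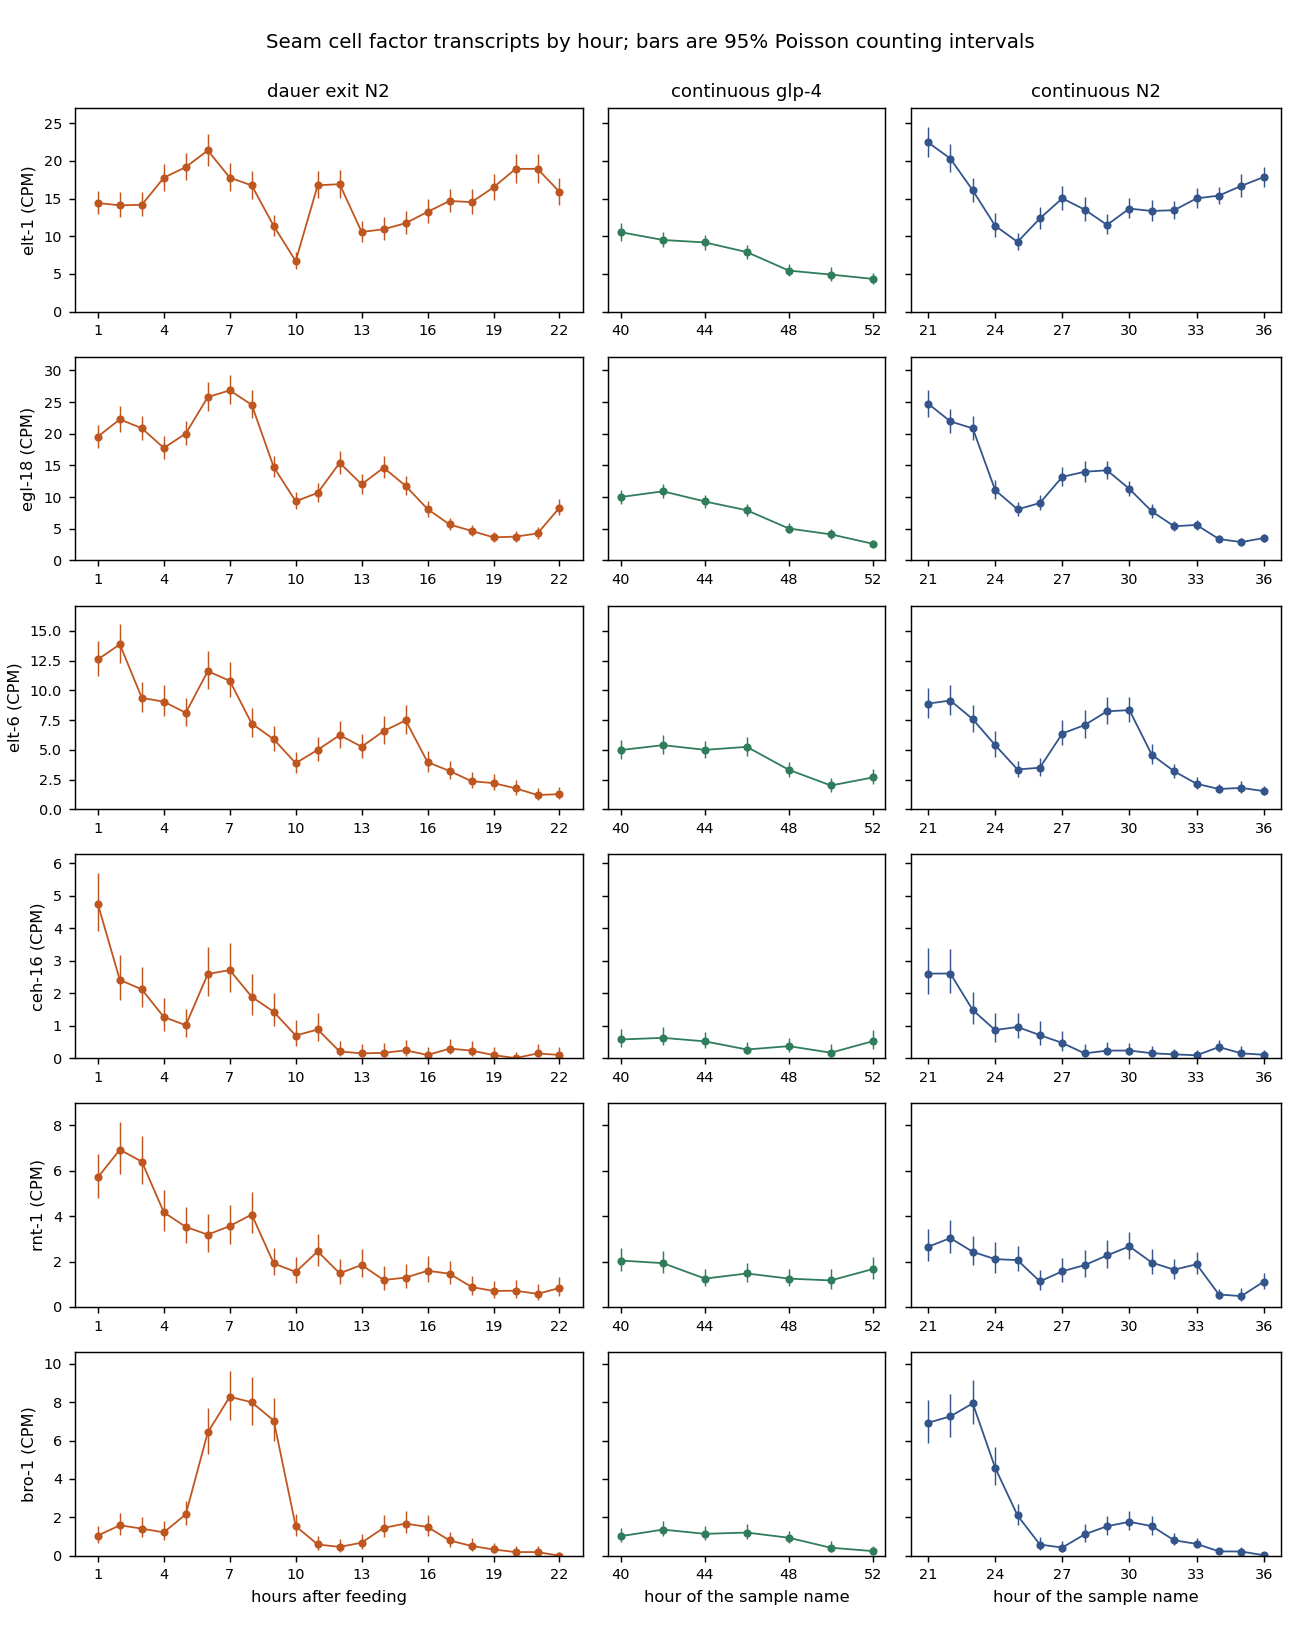
Level of each gene (rows, CPM) against the hour in dauer exit, glp-4 and continuous N2 (columns). Points are single libraries and bars are 95% Poisson counting intervals; bro-1 peaked at hour 7 of dauer exit (8.28 CPM) and at hour 23 of continuous N2 (7.94 CPM), while ceh-16 fell to between 0 and 0.293 CPM from hour 12 of dauer exit on.

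Over dauer exit 5 of the 6 genes fell, and elt-1 was the exception. The fitted change from hour 1 to hour 22 was -1.83 ± 0.43 for egl-18, -3.52 ± 0.34 for elt-6, -4.56 ± 0.90 for ceh-16, -3.25 ± 0.35 for rnt-1 and -2.87 ± 1.21 for bro-1 (log2 scale ± SE, 22 libraries, natural spline with 3 degrees of freedom). Without the library of hour 22, which held no bro-1 count, the change of bro-1 was -1.67, over hours 1 to 21, and still passed. All 5 had an edgeR quasi-likelihood adjusted p between 3.71e-09 (rnt-1) and 8.42e-05 (bro-1). This p tests the spline terms together, so it is for any change over the 22 hours and not for the fall from hour 1 to hour 22. Among the 15977 genes tested, 83.6% passed the adjusted p of 0.05 alone, so the passing of 5 members is close to the rest of the transcriptome; 24.7% fell and 29.9% rose by at least 1 on the log2 scale. The gene elt-1 had a fitted change of 0.56 ± 0.31 and an adjusted p of 0.0921, which moved to 0.0377 with DESeq2, 0.0244 with a spline of 4 degrees of freedom, 0.0169 without the library of hour 10 and 0.0333 without that of hour 22. The median fitted change of all genes was 0.12.

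In continuous N2 the same 5 genes fell from hour 21 to hour 36. The fitted change, on the log2 scale ± SE over 16 libraries, was -5.02 ± 0.66 for ceh-16, -4.27 ± 0.44 for bro-1, -2.50 ± 0.25 for egl-18, -1.79 ± 0.35 for elt-6 and -1.04 ± 0.33 for rnt-1. Adjusted p-values of edgeR's quasi-likelihood test were 4.99e-06 for ceh-16, 7.00e-07 for bro-1, 9.54e-07 for egl-18, 0.000674 for elt-6 and 0.0150 for rnt-1. Of 15622 genes tested, 15.3% fell and 20.6% rose by the same rule. The fall of rnt-1 was just past the change of 1 that the rule asks for. Its change was -0.98 to -0.88 without the library of hour 25, 27, 31, 34 or 35. It was -0.89 with relative log expression size factors, -0.95 with library size alone and -0.88 with DESeq2. Without the library of hour 36 it was -0.99, but over the shorter span of hours 21 to 35. The gene elt-1 had a change of -0.10 ± 0.25 (edgeR adjusted p = 0.740), which was 0.046 with relative log expression factors or DESeq2. Without the library of hour 21 it was 0.047, over hours 22 to 36. Median change of all genes was -0.12 with TMM scaling, -0.03 with library size alone and 0.04 with relative log expression factors, so these changes are relative to a median that moves with the scaling. The mean level of the germline markers in the last and the first 3 libraries was 2123 and 581 CPM in continuous N2 and 3038 and 871 CPM in dauer exit; 6 of these 7 genes rose in dauer exit and 7 of 7 in continuous N2. Other tissues moved too. In the last and the first 3 libraries of dauer exit, muscle markers averaged 11139 and 750 CPM, markers of the epidermal syncytium 901 and 6.65 CPM, intestinal markers 8884 and 2829 CPM and neuronal markers 177 and 765 CPM. In continuous N2 these averages were 12430 and 13163 CPM for muscle, 2181 and 3883 CPM for the syncytium, 7123 and 2084 CPM for intestine and 171 and 302 CPM for neurons, of which 4 of 6 genes fell. Of the 6 intestinal genes only vit-2 rose, by 14.5 on the log2 scale, and their median change was -0.26. In dauer exit 2 of these 6 rose and 1 fell (29.9% and 24.7% of all genes). All 6 syncytium genes oscillated in continuous N2 (26.2% of all genes), so their averages also differ by the phase of the wave. By the trend 2 of the 6 fell, with a median change of -0.23. The part of these tissues in the falls of the members was not tested.

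In glp-4 only elt-1 passed the rule for a fall. Its fitted change from hour 40 to hour 52 was -1.34 ± 0.23 on the log2 scale (7 libraries, edgeR adjusted p = 0.0422), where 1.49% of 14407 genes fell and 5.07% rose. The call was lost without the library of hour 42, 44, 46, 48 or 50 (edgeR adjusted p 0.121 to 0.274). Without that of hour 52 the adjusted p was 0.0197 in edgeR's test. The change was then -0.98, just under the rule's 1, but over the shorter span of hours 40 to 50, so it is not comparable with -1.34. The other fitted changes in glp-4 were -1.95 ± 0.40 for egl-18 (adjusted p = 0.0590), -1.32 ± 0.35 for elt-6 (0.0869), -1.77 ± 0.74 for bro-1 (0.200), -0.89 ± 0.72 for ceh-16 (0.448) and -0.37 ± 0.41 for rnt-1 (0.586), in edgeR's test. Without the library of hour 40, egl-18, elt-6 and bro-1 also passed, over hours 42 to 52, with edgeR adjusted p-values of 0.0309, 0.0454 and 0.0392. Without that of hour 52 egl-18 passed at 0.0238, with a change of -1.26 over hours 40 to 50. The germline markers averaged 51.2 CPM in the last and 63.4 CPM in the first 3 glp-4 libraries, and 8 markers of cycling cells averaged 56.1 and 138 CPM; their part in the falls was not tested.

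**Figure D2:**
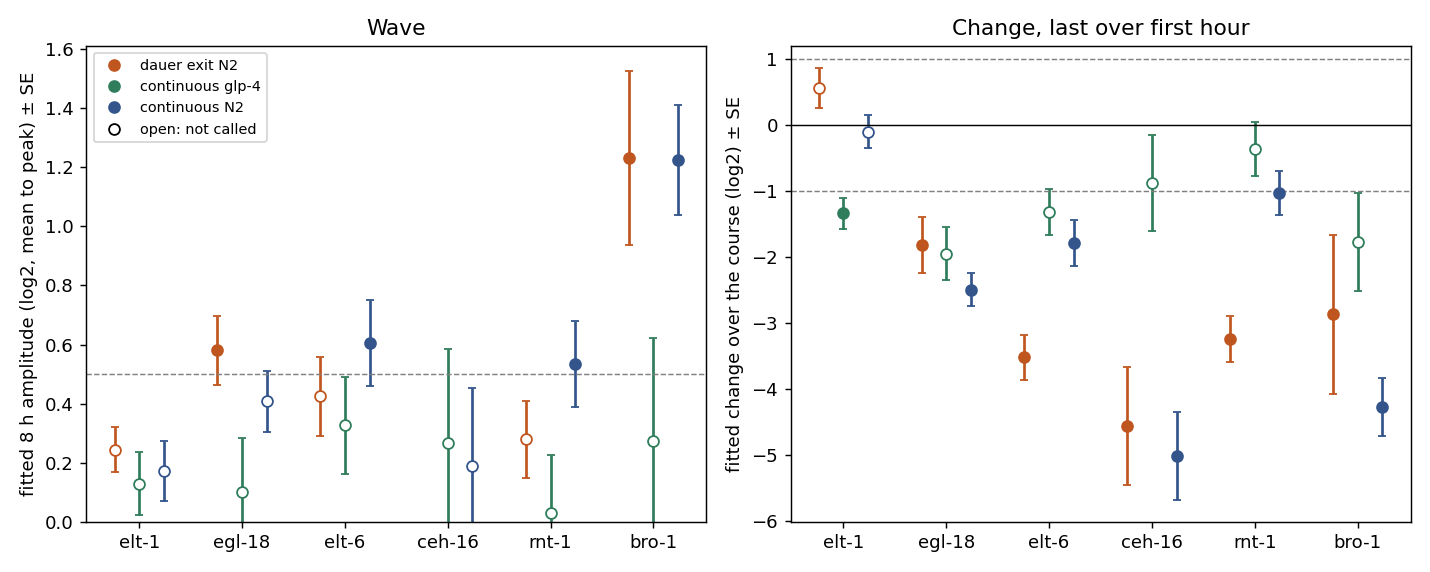
Fitted amplitude of the 8 h wave (left) and fitted change over the course (right), both on the log2 scale ± SE, for each gene in dauer exit, glp-4 and continuous N2. Filled points passed the rule and dashed lines mark the amplitude of 0.5 and the change of 1; the wave of bro-1 had an amplitude of 1.23 in both N2 courses, and ceh-16 has no wave point in dauer exit because it did not pass the filter on low counts there.

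Larval stages repeat in cycles, and an 8 h wave was fitted beside a linear trend. A gene was called at an adjusted p under 0.05 and an amplitude, from mean to peak, of at least 0.5 on the log2 scale. In hours 11 to 22 of dauer exit 2 of the 5 members tested were called, against 32.5% of 15360 genes. In continuous N2 3 of 6 were called, against 26.2% of 15622 genes. The members' shares rest on only 5 and 6 genes, and whether they differ from the background was not tested. No member was called in glp-4, where edgeR called 0 of 14407 genes (0%); 539 genes had an unadjusted p under 0.05, DESeq2 called 180 genes and limma 0, with 0 members in each.

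The transcript bro-1, of the CBFbeta partner, had the widest wave of the members in both N2 courses. Its level was lowest at 0 CPM at hour 22, had a median of 1.32 CPM and was highest at 8.28 CPM at hour 7 of dauer exit. In glp-4 it ranged between 0.243 CPM at hour 52 and 1.36 CPM at hour 42, with a median of 1.02 CPM. In continuous N2 its lowest level was 0.0259 CPM (1 count) at hour 36, its median 1.33 CPM and its highest 7.94 CPM at hour 23. The zero count at hour 22 of dauer exit allows up to 0.147 CPM by the limit of 3 counts, and the two-sided 95% Poisson interval drawn for it reaches 0.181 CPM; both cover counting error only.

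Both N2 courses held a high and then a low pulse of bro-1. In dauer exit bro-1 was at 1.05, 1.59, 1.41 and 1.22 CPM at hours 1 to 4, reached 6.42, 8.28, 8.00 and 7.04 CPM at hours 6 to 9, dropped to 0.460 CPM at hour 12 and returned to 1.68 CPM at hour 15. In continuous N2 it stood at 6.93, 7.26 and 7.94 CPM at hours 21 to 23, dropped to 0.425 CPM at hour 27 and returned to 1.77 CPM at hour 30. The top hour of the first pulse was 18.0-fold above the following low in dauer exit and 18.7-fold in continuous N2, with 9 and 10 counts in the low libraries. The later cycle averaged 0.648 ± 0.628 CPM at hours 15 to 22 and the earlier one 3.51 ± 3.57 CPM at hours 7 to 14 of dauer exit. In continuous N2 these means were 0.843 ± 0.688 CPM for the later cycle, hours 29 to 36, and 3.87 ± 3.19 CPM for the earlier one, hours 21 to 28 (SD over 8 hours each), and the ranges of the cycles overlapped in both courses.

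The fitted amplitude of bro-1 was 1.23 ± 0.29 with a peak at 15.9 ± 0.3 h in dauer exit (adjusted p = 0.0142, edgeR, 12 libraries). In continuous N2 it was 1.23 ± 0.19 with peaks at 22.8 ± 0.2 h and 30.8 h (adjusted p = 0.000365, edgeR, 16 libraries). The call in dauer exit was lost without the library of hour 16 (adjusted p = 0.0532). Adding a quadratic hour term lowered the dauer exit amplitude to 0.58 (adjusted p = 0.259, edgeR). The dauer exit call was also lost without the trend term (adjusted p = 0.256, edgeR), and with a period of 7 h neither course gave a call.

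The RUNX partner rnt-1 had its highest levels of dauer exit before the first pulse of bro-1. In dauer exit rnt-1 was lowest at 0.575 CPM at hour 21, had a median of 1.72 CPM and was highest at 6.93 CPM at hour 2. It ranged between 1.17 CPM at hour 50 and 2.04 CPM at hour 40 in glp-4, with a median of 1.47 CPM. In continuous N2 its lowest level was 0.478 CPM at hour 35, its median 1.92 CPM and its highest 3.03 CPM at hour 22. At hours 1 to 3 of dauer exit rnt-1 averaged 6.35 ± 0.61 CPM while bro-1 averaged 1.35 ± 0.27 CPM (SD over 3 hours). Per kilobase the ratio of rnt-1 to bro-1 was 3.94 at hour 1 and 0.197 at hour 9 of dauer exit, and 0.222 at hour 23 and 31.2 at hour 36 of continuous N2, the last resting on 1 count of bro-1.

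In continuous N2 rnt-1 had a wave of amplitude 0.53 ± 0.15 with peaks at 22.6 ± 0.3 h and 30.6 h (edgeR adjusted p = 0.0231). That call lay near both thresholds and was lost without the library of hour 26 (adjusted p = 0.0602), 30 (0.0741), 34 (amplitude 0.46) or 35 (0.48), and with periods of 7 h and 9 h. Hour by hour, its log2(CPM + 1) levels in both continuous N2 cycles had a Pearson r of 0.94 over 8 hour pairs, as had those of bro-1. The median r of 13724 genes was 0.51. For egl-18 r was 0.74, for elt-6 0.70, for ceh-16 0.39 and for elt-1 -0.51. Adding 1 narrows differences between levels below 1 CPM, as those of bro-1 often were. The trend was not removed, so a fall within both cycles also raises r. Between the dauer exit cycles, hours 7 to 14 and 15 to 22, r was 0.88 for bro-1, 0.80 for egl-18, 0.68 for elt-6, 0.63 for rnt-1, 0.53 for ceh-16 and -0.14 for elt-1. In dauer exit rnt-1 had an amplitude of 0.28 ± 0.13 and was not called (adjusted p = 0.187).

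RUNX and CBFbeta together are known to repress cki-1, which encodes an inhibitor of the cyclin-dependent kinases that start S phase. The level of cki-1 was lowest at 4.37 CPM at hour 8, when bro-1 was at 8.00 CPM, and highest at 36.0 CPM at hour 11 of dauer exit, when bro-1 was at 0.588 CPM. In glp-4 cki-1 was lowest at 8.48 CPM at hour 52, where bro-1 was lowest too at 0.243 CPM. It was highest at 15.1 CPM at hour 48, where bro-1 was at 0.936 CPM. At hours 40 to 46 cki-1 lay at 13.4 to 14.0 CPM, where bro-1 had its highest levels of 1.02 to 1.36 CPM. In continuous N2 cki-1 was lowest at 5.14 CPM at hour 23, the top hour of bro-1, and highest at 24.0 CPM at hour 26, when bro-1 was at 0.583 CPM. In the later cycle of dauer exit cki-1 was at 13.0 CPM at the second bro-1 maximum, hour 15, at 17.3 CPM at hour 20, where bro-1 was at 0.191 CPM, and at 9.12 CPM at hour 22, where bro-1 had no count. In continuous N2 it was at 14.6 CPM at the second bro-1 maximum, hour 30, at 10.5 CPM at hour 33, where bro-1 was at 0.617 CPM, and at 16.1 CPM at hour 34, where bro-1 was at 0.227 CPM. Inside the first bro-1 pulse cki-1 was also at 11.8 CPM at hour 6 of dauer exit, where bro-1 was at 6.42 CPM. At hour 21 of continuous N2 cki-1 was at 14.0 CPM and bro-1 at 6.93 CPM. Before the pulse, at hour 2 of dauer exit, cki-1 was at 7.94 CPM and bro-1 at 1.59 CPM. Low cki-1 levels thus coincided with high bro-1 levels at some hours of the first pulse of both N2 courses. They also coincided with lower bro-1 levels at hours 2 and 22 of dauer exit and hour 33 of continuous N2. The wave of cki-1 was called in continuous N2, with an amplitude of 0.62 (adjusted p = 0.0153, edgeR) and peaks at 26.9 and 34.9 h, and in dauer exit with an amplitude of 0.57. The order of these hours is a description of whole-worm levels, since cki-1 is expressed in many tissues.

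**Figure D3:**
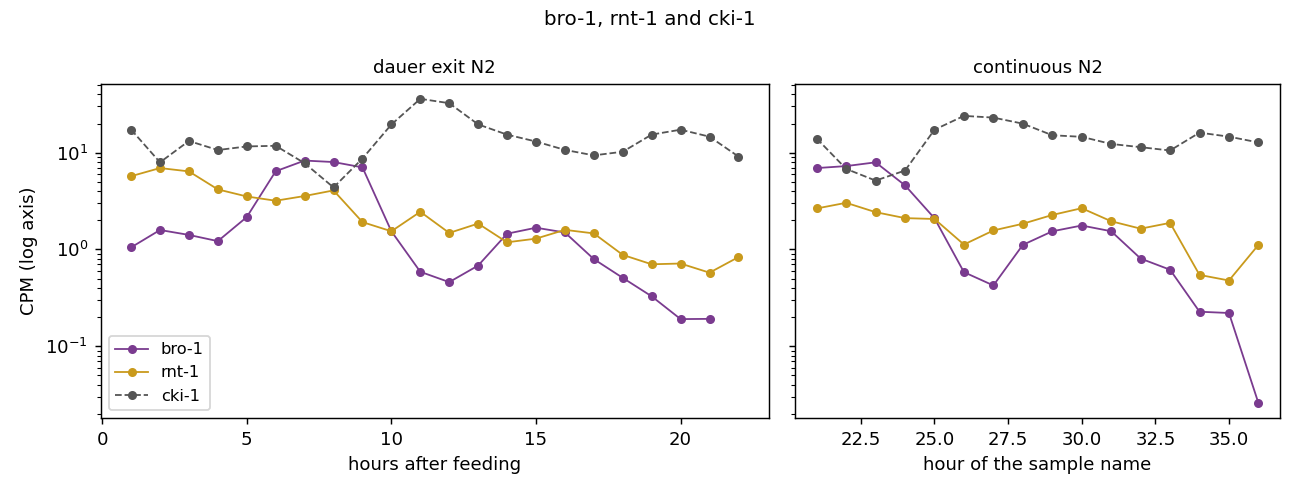
Levels of bro-1, rnt-1 and cki-1 (CPM, log axis) against the hour in dauer exit and in continuous N2; points are single libraries, and the bro-1 count of 0 at hour 22 of dauer exit is left out of the log axis. The lowest cki-1 level lay at hour 8 of dauer exit (4.37 CPM) and hour 23 of continuous N2 (5.14 CPM), inside the high pulse of bro-1.

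The GATA pair egl-18 and elt-6 lies in tandem on the plus strand of chromosome IV. In build WBcel235 egl-18 (WBGene00001186) spans chrIV:1902322-1917840 and elt-6 (WBGene00001253) spans chrIV:1917977-1921643, with 136 bases between them. In dauer exit egl-18 was lowest at 3.65 CPM at hour 19, had a median of 13.3 CPM and was highest at 26.9 CPM at hour 7. In glp-4 its range was 2.64 CPM at hour 52 to 10.9 CPM at hour 42, around a median of 7.93 CPM. Continuous N2 had 2.90 CPM at hour 35 as its lowest egl-18 level, 10.1 CPM as the median and 24.8 CPM at hour 21 as the highest.

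For elt-6 the lowest level in dauer exit was 1.20 CPM at hour 21, the median 6.06 CPM and the highest 13.9 CPM at hour 2. In glp-4 elt-6 lay between 2.00 CPM at hour 50 and 5.39 CPM at hour 42, with a median of 4.98 CPM, and in continuous N2 between 1.53 CPM at hour 36 and 9.14 CPM at hour 22, with a median of 5.00 CPM. Both genes were high in the first hours of each N2 course, low at hour 10 of dauer exit (9.34 CPM for egl-18 and 3.88 CPM for elt-6) and at hour 25 of continuous N2 (8.08 and 3.34 CPM), and had a second, lower maximum. In continuous N2 the second maximum was 14.2 CPM for egl-18 at hour 29 and 8.33 CPM for elt-6 at hour 30.

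Levels of the pair, as log2(CPM + 1) centred within each course, had a Pearson r of 0.92 over the 38 N2 libraries, the highest of any pair of members. This is a description, since consecutive hours are not independent. Per kilobase egl-18 exceeded elt-6 in 22 of 22 dauer exit libraries, 6 of 7 glp-4 libraries and 16 of 16 continuous N2 libraries, with median ratios of 1.86, 1.55 and 1.72. The ratio was highest at 5.45 at hour 22 of dauer exit, where egl-18 was at 8.34 CPM after 4.27 CPM at hour 21 and elt-6 stayed at 1.27 CPM.

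The waves of the pair fell on either side of the amplitude threshold. In dauer exit egl-18 had an amplitude of 0.58 ± 0.12 with a peak at 14.4 ± 0.3 h (adjusted p = 0.00820, edgeR) and was called, while elt-6 had 0.42 ± 0.13 with a peak at 15.4 ± 0.4 h (0.0466) and was not. The call of egl-18 was lost without the library of hour 22 (amplitude 0.45). It was also lost with a period of 7 h (adjusted p = 0.103, edgeR) and without the trend term (0.499). In continuous N2 elt-6 had an amplitude of 0.61 ± 0.15 with peaks at 21.6 ± 0.3 h and 29.6 h (adjusted p = 0.00994, edgeR) and was called, while egl-18 had 0.41 ± 0.10 with peaks at 21.4 ± 0.3 h and 29.4 h (0.0156) and was not. With a period of 7 h the continuous N2 call of elt-6 was lost (adjusted p = 0.150, edgeR). Both genes passed the adjusted p in both courses with the 8 h period, and whether the amplitudes of the pair differ from each other was not tested.

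The third GATA gene, elt-1 (WBGene00001249, plus strand, chrIV:9614995-9620280), had no called fall in either N2 course. In dauer exit elt-1 was lowest at 6.71 CPM at hour 10, had a median of 15.3 CPM and was highest at 21.4 CPM at hour 6. In glp-4 it lay between 4.34 CPM at hour 52 and 10.5 CPM at hour 40, with a median of 7.90 CPM. In continuous N2 the lowest level was 9.25 CPM at hour 25, the median 14.3 CPM and the highest 22.5 CPM at hour 21. Levels at the end of both N2 courses lay above the median, at 18.9 and 15.9 CPM at hours 21 and 22 of dauer exit and 16.7 and 17.8 CPM at hours 35 and 36 of continuous N2.

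All 3 elt-1 levels at hours 48 to 52 of glp-4 (4.34 to 5.45 CPM) lay below the lowest of the 38 N2 libraries (6.71 CPM). This comparison was chosen after the values were seen, and 20.7% of 13956 genes with a mean of at least 1 CPM over the N2 libraries met it. No wave of elt-1 was called, with amplitudes of 0.24 ± 0.08 in dauer exit (adjusted p = 0.0542), 0.13 ± 0.11 in glp-4 (0.998) and 0.17 ± 0.10 in continuous N2 (0.367), in edgeR's test. Its Pearson r with the other members over the 38 N2 libraries was 0.03 to 0.24, where the other pairs of members had 0.56 to 0.92.

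The engrailed-type gene ceh-16 (WBGene00000439, plus strand, chrIII:8622735-8626314) had the lowest median of the members in each course. Within a library it was not always the lowest. Per kb rnt-1 exceeded it in 18 of 22 dauer exit libraries and bro-1 exceeded it in 12 of 16 continuous N2 libraries. In dauer exit ceh-16 was highest at 4.74 CPM at hour 1, had a median of 0.494 CPM and a lowest level of 0 CPM at hour 20. Its level in glp-4 lay between 0.167 CPM at hour 50 and 0.624 CPM at hour 42, with a median of 0.516 CPM. In continuous N2 ceh-16 was highest at 2.61 CPM at hour 22, had a median of 0.287 CPM and was lowest at 0.0882 CPM (3 counts) at hour 33. Levels were thus high at the start of both N2 courses and near the detection limit at their end.

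In dauer exit ceh-16 first declined to 1.01 CPM at hour 5, was at 2.59 and 2.71 CPM at hours 6 and 7, when bro-1 stood at 6.42 and 8.28 CPM, and did not exceed 0.293 CPM from hour 12 on. The later cycle averaged 0.149 ± 0.097 CPM at hours 15 to 22, and the earlier one 1.01 ± 0.93 CPM at hours 7 to 14 (SD over 8 hours each). In continuous N2 the later cycle, hours 29 to 36, averaged 0.176 ± 0.086 CPM, and the earlier one, hours 21 to 28, 1.23 ± 0.93 CPM. The fitted changes of edgeR include a small added count, and how far the falls of ceh-16 depend on it was not tested. No wave was called in glp-4 (amplitude 0.27 ± 0.32, adjusted p = 0.998) or continuous N2 (0.19 ± 0.26, 0.810; edgeR), and in hours 11 to 22 of dauer exit the gene did not pass the filter on low counts. The last 57 bases of ceh-16 overlap polk-1 on the other strand; the libraries were made with a stranded kit, but the sources used here do not say whether the counting used the strand. The level of polk-1 was highest at the last hour of both N2 courses, at 62.2 CPM in dauer exit and 29.5 CPM in continuous N2, where ceh-16 was near 0.

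**Figure D4:**
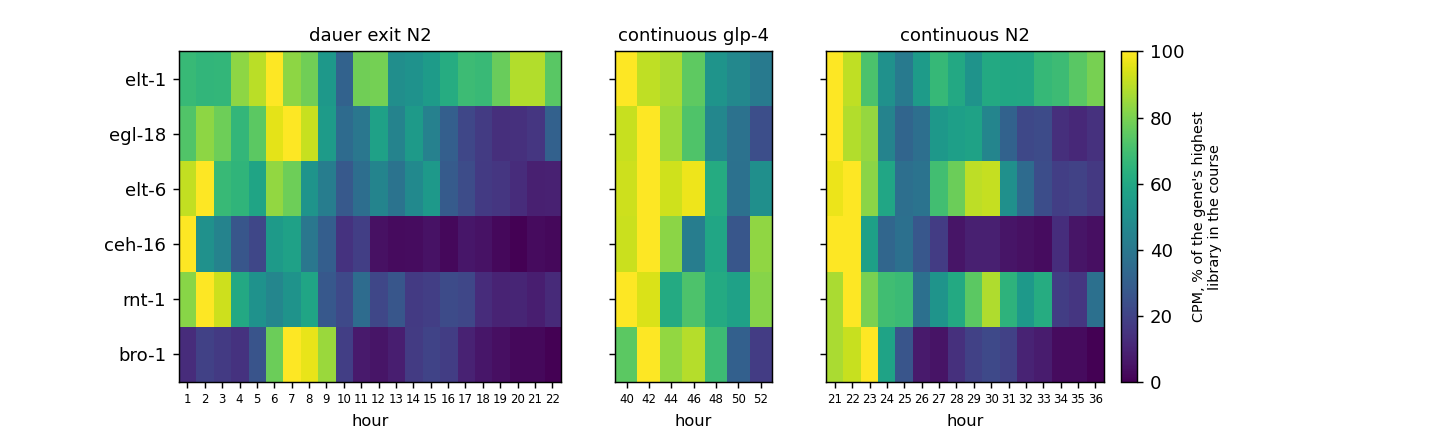
Level of each gene as a percentage of its own highest library in the course, by hour, for dauer exit, glp-4 and continuous N2. In dauer exit egl-18, elt-6 and rnt-1 were high at hours 1 to 3 while bro-1 was low at 1.05 to 1.59 CPM. The level of ceh-16 was highest at hour 1 (4.74 CPM) and had dropped to 2.12 CPM at hour 3. In continuous N2 all 6 genes were high at hours 21 and 22.

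Remaining members lie on chromosome I, with rnt-1 (WBGene00004393) on the plus strand at chrI:5776093-5788611 and bro-1 (WBGene00000272) on the plus strand at chrI:5186926-5189240. The courses have different clocks, and the 3434 genes called oscillating in both gave a mean shift of 1.41 h, modulo the 8 h period, between continuous N2 and dauer exit. With the continuous N2 peak moved by this shift, the dauer exit peak differed from it by -0.40 h for egl-18, 0.46 h for elt-6, 0.35 h for rnt-1, -0.37 h for bro-1 and -2.98 h for elt-1, with standard errors of 0.18 to 0.82 h for the single peaks. Of these 5 genes bro-1 was the one whose wave was called in both courses, and elt-1 was called in neither. The waves of 0 of 6 members differed between the courses in a joint edgeR fit over 28 libraries, with adjusted p-values of 0.856 to 0.935. Of all 15824 genes 0 differed (0%), 883 had an unadjusted p under 0.05 and DESeq2 called 13; among the members elt-1 had an unadjusted p of 0.0387. With a shift 1 h later bro-1 differed, by 1.25 on the log2 scale (adjusted p = 0.0229, edgeR), when 3141 genes did.

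Genes that act with these factors, in the same cells or in the same family were counted from lists. Of the 7 GATA genes tested in continuous N2, 3 were called oscillating, with 26.2% of all genes called: elt-3, which acts in the epidermal syncytium (amplitude 0.92), the intestinal elt-7 (0.75) and elt-6. Again 3 of 7 were called in dauer exit, with 32.5% of all genes called: elt-3 (0.97), elt-7 (0.81) and egl-18. The median amplitude of the GATA list was 0.42 in dauer exit and 0.41 in continuous N2, beside 0.32 and 0.27 for all genes. This list includes the members elt-1, egl-18 and elt-6. Its medians are the values of elt-6 in dauer exit and egl-18 in continuous N2, so they are no independent comparison for the members.

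The Wnt pathway that gives the daughters of a seam division their different fates held 1 called wave in each N2 course. Of 23 genes 1 was called in dauer exit (32.5% of all genes) and 1 in continuous N2 (26.2% of all genes), in both cases lit-1, the kinase that acts on the TCF factor POP-1, with amplitudes of 0.61 and 0.56. The median amplitude of the list was 0.20 in dauer exit and 0.13 in continuous N2. The level of pop-1, the TCF factor itself, was 19.6 to 47.2 CPM in dauer exit, 15.6 to 27.8 CPM in glp-4 and 18.2 to 32.4 CPM in continuous N2. Over dauer exit 4 of the 23 rose and 8 fell, where 29.9% of all genes rose and 24.7% fell. In glp-4 0 rose and 3 fell (5.07% and 1.49% of all genes), and in continuous N2 1 rose and 4 fell (20.6% and 15.3%).

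Among 14 genes of G1 and S phase entry, cyd-1 and cdk-4, which encode cyclin D and its kinase, fell in continuous N2 by 4.75 and 2.00 on the log2 scale, while the cyclin E gene cye-1 rose by 1.21 and the inhibitor gene cki-2 by 1.33. In dauer exit cyd-1 fell by 4.07, and cye-1 rose by 1.53 and the phosphatase gene cdc-25.1 by 1.08. In glp-4 0 of the 14 passed edgeR's test for a trend. These are 2 that rose and 1 that fell in dauer exit (29.9% and 24.7% of all genes), and 2 that rose and 2 that fell in continuous N2 (20.6% and 15.3%). Levels of cyd-1 were 35.6 CPM at hour 7 of dauer exit and 0.719 CPM at hour 21, and 37.1 CPM at hour 22 of continuous N2 and 0.220 CPM at hour 35, hours at which bro-1 was also high and low. Between the bro-1 pulses cyd-1 did not fall as far. It was at 18.5 and 16.7 CPM at hours 11 and 12 of dauer exit, where bro-1 was at 0.588 and 0.460 CPM. At hours 26 and 27 of continuous N2 cyd-1 was at 13.9 CPM and bro-1 at 0.583 and 0.425 CPM. Wave calls numbered 3 of 14 in dauer exit, including cyd-1 with an amplitude of 1.17, and 1 of 14 (cki-1) in continuous N2, where 32.5% and 26.2% of all genes were called.

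Of 15 other seam and epidermal transcription factors tested, 6 were called oscillating in dauer exit (32.5% of all genes) and 8 in continuous N2 (26.2% of all genes). The widest waves in continuous N2 were those of bed-3 (amplitude 2.63), grh-1 (1.67) and nhr-25 (1.18). In dauer exit 2 of the 15 rose and 9 fell (29.9% and 24.7% of all genes), in glp-4 0 rose and 1 fell (5.07% and 1.49%), and in continuous N2 1 rose and 8 fell (20.6% and 15.3%). The steepest falls in continuous N2, on the log2 scale, were changes of -4.23 for nhr-25 and -4.03 for lin-22, which encodes a hairy-related factor of seam patterning. The level of lin-22 was 0.334 to 5.78 CPM in dauer exit, 0.709 to 3.10 CPM in glp-4 and 0.235 to 5.07 CPM in continuous N2.

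The cell fusion genes eff-1 and aff-1 were called oscillating in both N2 courses, with amplitudes of 0.84 and 1.12 in dauer exit and 0.82 and 1.25 in continuous N2. They were 2 of the 3 genes called among 10 fusion and junction genes in dauer exit, dlg-1 being the other, and the only 2 called in continuous N2, shares near the 32.5% and 26.2% of all genes. The level of aff-1, which encodes the fusogen of the last seam fusion, was highest at 40.8 CPM at hour 14 of dauer exit, 29.9 CPM at hour 44 of glp-4 and 36.6 CPM at hour 29 of continuous N2. The level of eff-1 was highest at 38.5 CPM at hour 7 of dauer exit, 20.9 CPM at hour 44 of glp-4 and 24.2 CPM at hour 22 of continuous N2. The fitted continuous N2 peaks of the waves lay at 21.9 and 29.9 h for eff-1 and at 21.2 and 29.2 h for aff-1.

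All 9 secreted seam products and alae cuticlins tested were called oscillating in both N2 courses, where 32.5% of all genes in dauer exit and 26.2% in continuous N2 were called; in glp-4 edgeR called no gene of any kind. The widest waves in continuous N2 were those of the hedgehog-related genes wrt-2 (amplitude 3.14) and wrt-8 (2.94) and of the cuticlin gene cut-6 (2.55). The median amplitude of the 9 was 2.29 in dauer exit and 2.07 in continuous N2. The members' amplitudes of 0.24 to 1.23 in dauer exit and 0.17 to 1.23 in continuous N2 thus lay below these medians. The seam-expressed gene grd-10 was highest at 145 CPM at hour 12 of dauer exit, 67.3 CPM at hour 40 of glp-4 and 127 CPM at hour 27 of continuous N2.

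The genes most like each member were taken by Pearson r of log2(CPM + 1) over the 38 N2 libraries, centred within each course, among 13055 genes. For egl-18 they were baz-2, spat-3, ztf-6, ceh-41 and exc-5 (r of 0.94 to 0.96), and for elt-6 they were ztf-6, din-1, C36B7.6, ctbp-1 and clec-184 (0.94 to 0.96). For ceh-16 they were nhr-67, lag-2, cfz-2, egl-43 and mab-9 (0.88 to 0.91), and for rnt-1 they were osm-10, W01B6.3, egli-1, wapl-1 and pros-1 (0.94). For bro-1 the closest was tba-8 (0.93), followed by nhr-113, F31F4.11, alg-1 and hum-6 (0.84 to 0.88). No gene came close to elt-1, for which tbc-7, rnf-5, oac-52, T23B3.2 and mtm-6 had r of 0.57 to 0.61.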

How the data were processed

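Polyadenylated RNA of whole worms was measured in 45 libraries. Libraries were made with a stranded kit per the labels' protocols, and the authors deposited raw counts per gene and a table of log2 values. The deposited log2 values equalled log2 of the count scaled to the mean total of its course plus 8, within 5e-05, and were used for this check only. The sources used here name no aligner, counting tool or build. Symbols came from a names table (18778 identifiers) and coordinates and exon lengths from WBcel235. CPM used library totals.

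Tests on the counts used edgeR 4.0.16 under R 4.3.3 (filterByExpr, TMM, robust quasi-likelihood F-test, Benjamini-Hochberg over all genes tested), within each course. The wave model joined a linear hour term with 8 h cosine and sine terms, tested together; in dauer exit it used hours 11 to 22. Trends came from the linear term, and dauer exit was also fitted with a natural spline with 3 degrees of freedom over all 22 hours. A direction needs an adjusted p under 0.05 and a change of at least 1 on the log2 scale. With the first or last library of a course left out, the change covers the shorter span of hours that remains. The tests were tried on simulated data. DESeq2 1.42.0, limma 3.58.1, other scalings, filters, periods and trend terms, and leaving out each library were alternatives. Since samples were 1 per hour, p-values measure the scatter around the curve.

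Named genes are the 6 members, the 5 genes most like each, the 3 called genes of each list with the widest continuous N2 waves and a few fixed genes; other list genes and polk-1 were named after their values were seen. Members and lists rest on known roles and were chosen with earlier results of these data known. No sequences are shown.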

Additional observations from a re-analysis of the deposited data

How the results depend on the processing

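Counts of members called moved as follows. With a period of 7 h the waves numbered 0 in continuous N2, against 3, and 0 in dauer exit, against 2. Dauer exit waves numbered 0 without the trend term, 1 with a quadratic hour term and 1 to 2 with each library left out. Members with a trend in glp-4 numbered 2 with library size alone, 3 with DESeq2, 0 with a period of 7 h, 3 with a period of 9 h and 0 to 4 with each library left out, against 1. With the clock shifted 1 h later, 1 wave differed between courses, against 0. The continuous N2 trend of elt-1 changed sign with relative log expression factors (0.046) and with DESeq2 (0.046), and spanned -0.24 to 0.047 with each library left out; the cause was not tested.

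Over all genes, waves in continuous N2 numbered 2044 with a period of 7 h, against 4093. In dauer exit they numbered 1033 with a period of 7 h and 2205 without the trend term, against 4991. In glp-4 waves numbered 180 with DESeq2 and 69 with a period of 9 h, against 0, and trends 2175 with DESeq2, 220 with a period of 7 h, 2239 with a period of 9 h and 18 to 2217 with each library left out, against 944. Waves that differed numbered 13 with DESeq2, 1 with a period of 9 h, 2399 with a shift 1 h earlier and 3141 with 1 h later, against 0. Of 636 values of single members with 1 library left out 611 kept their direction and side of the threshold, as did 291 of 314 under other settings. No paired analysis was possible because each hour has 1 library and no number in the labels links the courses.

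Low counts limit ceh-16 and bro-1 late in both N2 courses, and 7 libraries limit glp-4.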
